A study of Homo sapiens with 8 samples.

Results

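Translation initiation factor subunits were taken as a fixed set of 43 human genes, listed by name. The set covered the eIF1, eIF2, eIF2B, eIF3, eIF4, eIF5 and eIF6 factors, the reinitiation factors grouped here with eIF2A, and the poly(A)-binding proteins with their partners. Transcripts were matched to gene symbols, and the transcript with the highest value stood for its gene. Of these 43 genes, 41 were listed in at least 1 library, among 12235 genes listed in the series as a whole. EIF2B5, the catalytic subunit of eIF2B, and EIF4A3, a helicase of the exon junction complex, were listed in none and were not analysed here.

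The data were ribosome footprint densities from HEK293T cells, an established human embryonic kidney line transformed with a viral T antigen. The cells were kept overnight in medium with all amino acids (Suff) or in the same medium without arginine (Arg-), leucine (Leu-) or methionine (Met-), and each condition was prepared once with cycloheximide (CHX) pre-treatment and once without it. All 4 media held dialyzed serum and were built on a custom base lacking several amino acids, to which all but the omitted one were added back. With 1 library per condition there was no replicate. The 2 series differ in CHX and in processing and were not used as replicates of each other, so no test between conditions was run and no p-value is given. Intervals given below are exact 95% binomial intervals of a ratio of recovered reads, and they cover counting error only.

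Initiation factors bring the initiator tRNA and the mRNA to the small ribosomal subunit, scan for the start codon and let the large subunit join. Amino acid starvation is known to act on this step at the eIF2 complex, which the kinase GCN2 phosphorylates and whose nucleotide exchange factor eIF2B is then inhibited. It is also known to act at the cap-binding protein eIF4E, which the 4E-BP proteins sequester when mTORC1 is inactive. Several initiation factor mRNAs, with those of ribosomal proteins and elongation factors, start with a terminal oligopyrimidine (TOP) tract, which ties their translation to mTORC1.

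Because the TOP class is defined by the first bases of the mRNA, the annotated start sites of the members were read from RefSeq (GRCh38.p14). A TOP start was counted where the first transcribed base was C and at least 4 further C or T bases followed it on the transcribed strand. RefSeq start windows were at hand for 35 of the 43 members, and 9 of these (25.7%) had such a start. The share was 5.14% of all genes in that table, 7.57% of its 9590 genes listed in at least 1 library and 74.6% of 63 ribosomal protein genes. The 9 windows are shown from 10 bases before to 20 bases from the start, with the pyrimidine tract from the start site in capitals. They span chrX:24054946-24054975 (plus strand) for EIF2S3, chr3:150546777-150546806 (plus) for EIF2A, chr1:206612446-206612475 (minus) for EIF2D, chr22:36529147-36529176 (minus) for EIF3D, chr11:7987327-7987356 (plus) for EIF3F, chr19:38619178-38619207 (plus) for EIF3K, chr11:32583821-32583850 (plus) for EIF3M, chr3:186783567-186783596 (plus) for EIF4A2 and chr12:53006446-53006475 (plus) for EIF4B.
EIF2S3: gatttccttcCTCTTTTggcaacatggcgg
EIF2A: cgagcggtttCTCTTTCCgggacaacatgg
EIF2D: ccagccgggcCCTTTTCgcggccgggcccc
EIF3D: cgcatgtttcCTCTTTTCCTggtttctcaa
EIF3F: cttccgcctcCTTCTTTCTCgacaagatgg
EIF3K: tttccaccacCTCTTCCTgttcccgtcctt
EIF3M: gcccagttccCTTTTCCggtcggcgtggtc
EIF4A2: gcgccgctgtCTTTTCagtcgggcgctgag
EIF4B: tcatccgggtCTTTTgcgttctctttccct

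The windows of EIF1, EIF1AX and DENR are shown for contrast, since the results below turn on these 3 genes. They lie at chr17:41688875-41688904 (plus), chrX:20141819-20141848 (minus) and chr12:122752814-122752843 (plus), and each starts with G, the base in capitals.
EIF1: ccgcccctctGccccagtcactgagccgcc
EIF1AX: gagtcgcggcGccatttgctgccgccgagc
DENR: aaggctcattGtctcgcgggagcgctgctg
A start of this kind is a feature of the annotation and was not measured in these cells. EIF2S2, EIF3A, EIF3E, EIF3G, EIF3H, EIF3L, PABPC1 and PABPC4 had no window here.

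Depth differed widely between libraries. Reads on coding sequences numbered between 538222 and 6434043 in the CHX libraries, lowest in Met-, and between 1302523 and 3139745 without CHX. A transcript was listed from 64 reads in the CHX libraries and from 5 reads in the others. Genes known to respond to amino acid starvation, such as the asparagine synthetase gene ASNS and the transcription factor gene ATF4, were higher in all 6 starved libraries, with log2 ratios from 1.04 to 4.73. Of 5 genes expressed in this line, VIM, NEFL and NEFM were listed in the Suff library with CHX and all 5 without CHX. Of 10 markers of other cell types, COL1A1 alone was listed, at 1.59 to 20.2 RPKM.

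Members were listed to a different extent in the 2 series. In the CHX series 39 members were listed in Suff, Arg- and Leu-, but 14 in Met-. Without CHX, 40 members were listed in each library. EIF3A, the large scaffold subunit of eIF3, was listed only in the CHX series, whereas EIF3C, another core subunit, and EIF4G1, the main scaffold of the cap-binding complex, were listed only without CHX. Why these 3 were listed in 1 series only was not tested. EIF3C lay between 1.05 and 4.39 RPKM. It has a near-identical copy, EIF3CL, and reads shared by both copies would not be unique, so its value is uncertain. In all, 13 members were listed in all 8 libraries and 25 in all but Met- with CHX.

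**Figure D1:**
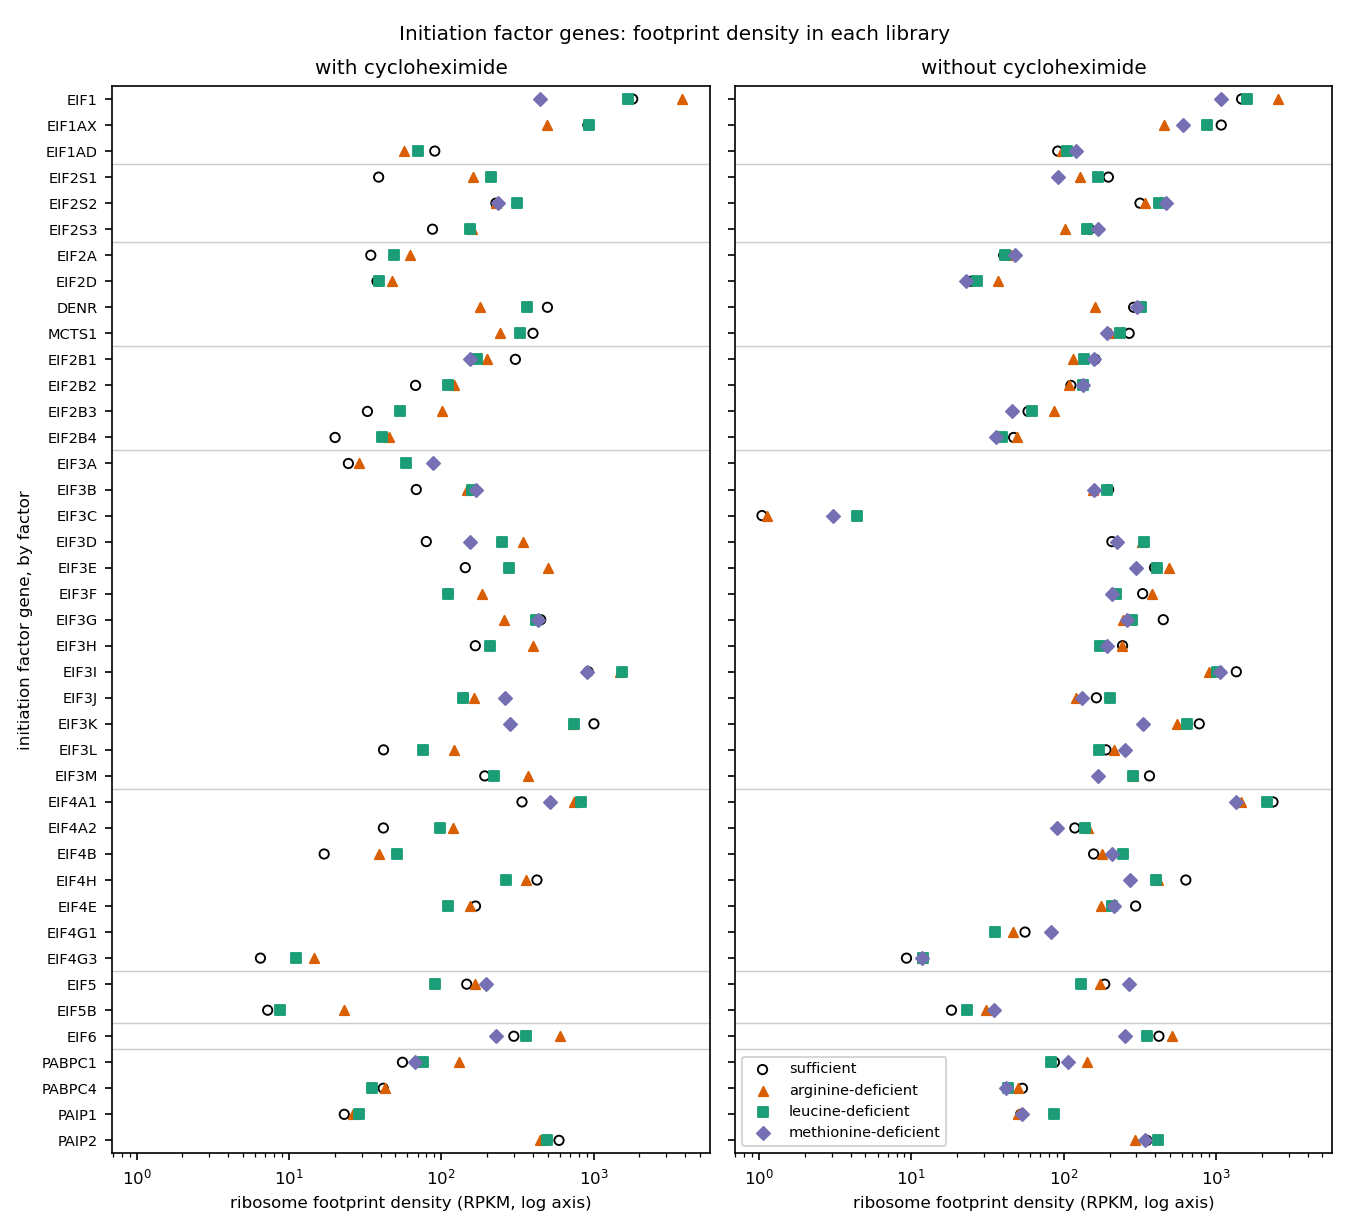
Footprint density in RPKM (log axis) of the 41 listed members, by factor, in the 4 libraries with cycloheximide (left) and the 4 without (right). EIF1, EIF1AX, EIF3I, EIF3K and EIF4A1 lie to the right, EIF4G3 and EIF5B to the left, and Met- points are missing for most members in the left panel.

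RPKM, reads scaled to coding length and library depth, allows levels of different genes to be compared per length, and the members spanned a wide range. In Suff without CHX the highest was the RNA helicase EIF4A1 at 2368 RPKM, followed by EIF1, which selects the start codon, at 1472 RPKM and EIF3I at 1360.0 RPKM. At the low end lay EIF4G3, a scaffold paralog, at 9.29 RPKM and EIF5B, the GTPase of subunit joining, at 18.3 RPKM, leaving aside EIF3C. Subunits of 1 complex were not listed at equal density. Among the eIF2B subunits the order EIF2B1, EIF2B2, EIF2B3, EIF2B4 from high to low was the same in all 7 libraries that listed these 4, with a spread from lowest to highest of 2.33-fold in Arg- without CHX to 15.3-fold in Suff with CHX. Among the eIF2 subunits EIF2S2, the beta subunit, was the highest in all 7 libraries that listed all 3. Within eIF3, EIF3I was the highest subunit in 7 libraries and EIF3K in Suff with CHX, where it stood at 1006 RPKM against 923 RPKM for EIF3I.

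The question of the 6 comparisons was how footprint density on these genes differed between each starved condition and Suff of the same series. Values are log2 ratios of RPKM + 1, for genes listed in both libraries with a mean RPKM of at least 10. A gene was called when it was at least 2-fold higher or lower. RPKM mixes mRNA level with ribosome occupancy, and these, like the number of cells behind a library, cannot be told apart here.

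With CHX, members were mostly higher in Arg-. Of 39 members counted, 16 were at least 2-fold higher and 1 was at least 2-fold lower, where 16.6% of all genes were higher and 19.7% lower. Their median log2 ratio was 0.84 and that of all 5074 genes was -0.23. The members higher were EIF1, EIF2B3, EIF2B4, EIF2S1, EIF3B, EIF3D, EIF3E, EIF3H, EIF3L, EIF4A1, EIF4A2, EIF4B, EIF4G3, EIF5B, EIF6 and PABPC1, and the member lower was DENR. Among the 25 members expected at 4 times the lowest number of reads or more, the Arg- median was smaller, at 0.23, with 8 higher and 1 lower. This filter, also used for Leu- and Met- below, selects on the Suff level, the denominator of the ratio. All-gene values under it were not taken, so its medians and counts cannot be set against those of other genes. In Leu- with CHX, 7 of 37 were at least 2-fold higher and 0 lower (12.1% and 7.28% of all genes), and the median was 0.31 against 0.02. These 7 were EIF2S1, EIF3A, EIF3B, EIF3D, EIF4A1, EIF4A2 and EIF4B. Among 25 members with that expected number of reads, the Leu- median was 0.015, with 4 higher and 0 lower. In Met- with CHX only 14 members could be counted. A gene had to reach 64 reads in this library, the shallowest, so genes low in Met- were often left out. Both the members and all genes counted were thus selected towards higher values. Of the 14, EIF3A and EIF3B were higher and EIF1 and EIF3K lower (46.7% and 9.79% of all genes), with a median of 0.16 against 0.89. Centred on the all-gene median, 0 of the 14 were higher and 4 lower, namely EIF1, EIF2B1, EIF3K and EIF6 (20.8% and 23% of all genes). Without centring, the 3 members expected at 4 times the lowest number of reads or more had a median of -1.83, with 0 higher and 2 lower.

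Without CHX fewer members passed 2-fold. In Arg- the count was 0 higher and 1 lower, EIF1AX, of 39 (8.23% and 5.95% of all genes), with a median of -0.06 against -0.02. In Leu- no member of 39 passed 2-fold in either direction (6.85% and 2.06%), and the median was -0.06 against 0.14. In Met- 0 were higher and 4 lower of 39 (20.2% and 5.34%), namely EIF2S1, EIF3K, EIF3M and EIF4H. The member median there was -0.32 against 0.32 for all 7884 genes, and 31 of the 39 members lay below that all-gene median. Once each library was centred on the all-gene median, 8 members were at least 2-fold lower in Met-, where 10.7% of all genes were, and 0 higher, also against 10.7%.

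**Figure D2:**
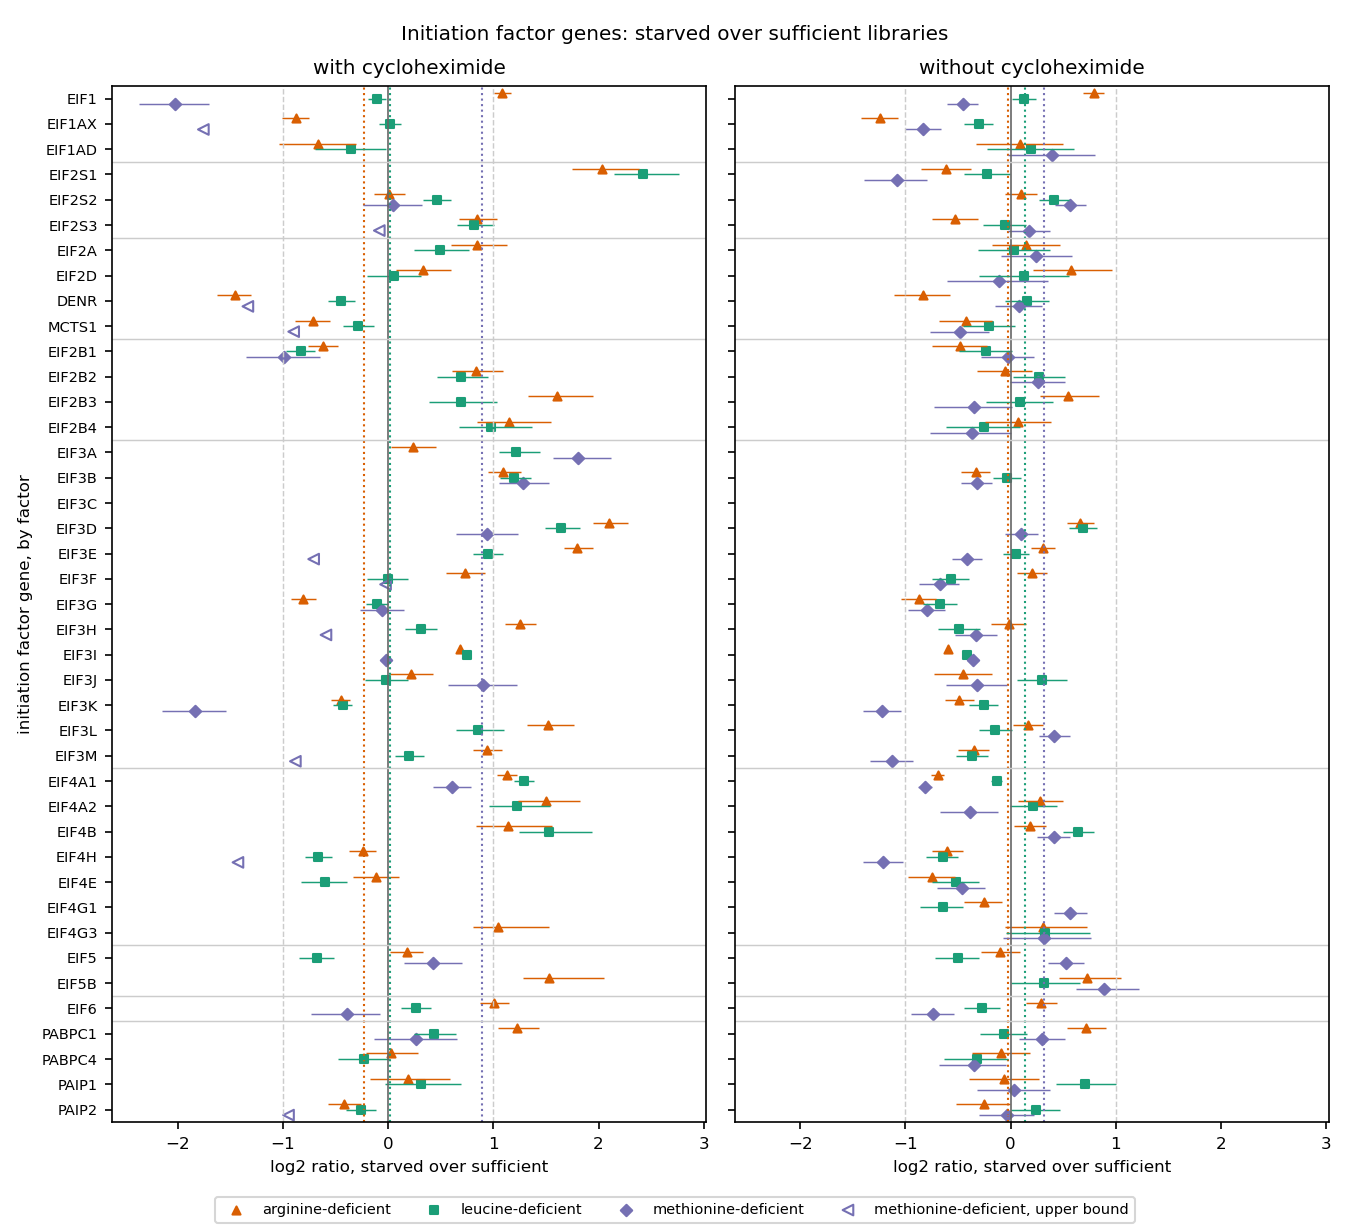
Log2 ratio of each starved library over the sufficient library of its series for the members counted in each comparison, with 95% counting intervals as bars. Dotted lines mark the median of all genes in each comparison and dashed lines 2-fold. Open triangles mark upper bounds for members not listed in Met- with cycloheximide, only where the bound lay below the sufficient level. EIF3C, not counted, has no point. EIF3I has no interval because its values did not fall on whole reads.

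EIF1 and EIF1AX, a pair of small factors that act together in scanning and start codon selection, differed in opposite directions in Arg-. EIF1 stood at 1808 RPKM in Suff, 3833 in Arg-, 1679 in Leu- and 444 in Met- with CHX. Without CHX its values in the same order were 1472, 2548, 1608 and 1072 RPKM. It was the highest in Arg- and the lowest in Met- in both series, with log2 ratios to Suff of 1.08 (95% counting interval 1.004 to 1.16) and 0.79 (0.69 to 0.89) in Arg- and of -2.02 (-2.37 to -1.70) and -0.46 (-0.60 to -0.31) in Met-, each time with CHX first. The transcript listed for EIF1 differed between the series, with a coding length of 342 bases with CHX and 366 bases without it. EIF1AX stood at 919 RPKM in Suff, 499 in Arg- and 928 in Leu- with CHX. It stood at 1083, 457, 877 and 607 RPKM in Suff, Arg-, Leu- and Met- without CHX. Its log2 ratio in Arg- was -0.88 (-1.01 to -0.76) with CHX and -1.24 (-1.42 to -1.07) without it, and in Leu- it was 0.02 and -0.30. EIF1AD, a protein with an eIF1A-like domain, was low throughout and stayed within 2-fold of Suff in every comparison that counted it.

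DENR and MCTS1 form a heterodimer that recycles the small subunit and supports reinitiation. DENR was listed at 498 RPKM in Suff, 181 in Arg- and 366 in Leu- with CHX. The values without CHX were 288, 161, 321 and 303 RPKM in Suff, Arg-, Leu- and Met-. It was lowest in Arg- among the listed values of each series, with log2 ratios of -1.46 (-1.63 to -1.30) and -0.83 (-1.10 to -0.58), whereas in Leu- they were -0.45 and 0.16. Its partner MCTS1 was also lower in Arg-, by smaller amounts, at -0.72 (-0.88 to -0.56) and -0.43 (-0.69 to -0.17). EIF2D, which combines both activities in 1 protein, lay the other way, at 0.33 (0.08 to 0.60) and 0.57 (0.21 to 0.97). EIF2A, an alternative carrier of initiator tRNA, was at 0.84 in Arg- with CHX and 0.15 without it.

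**Figure D3:**
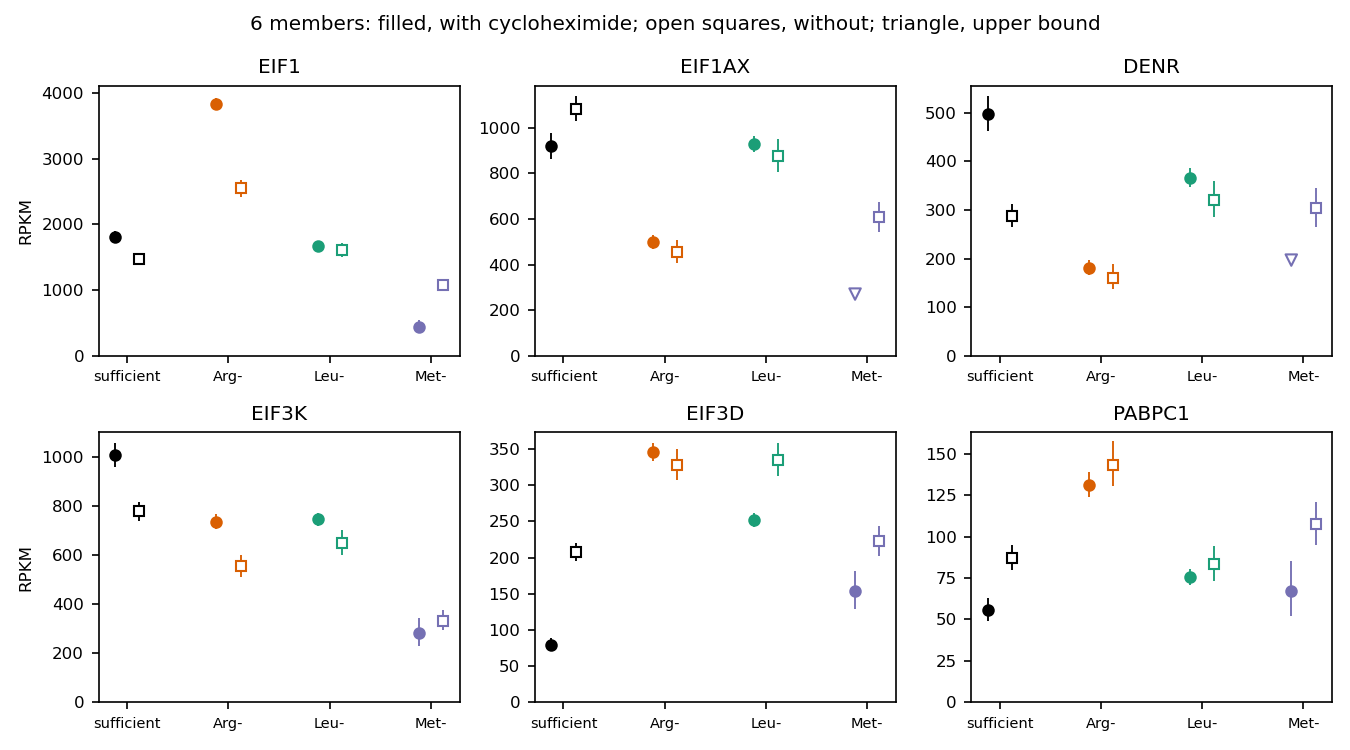
RPKM of 6 members in Suff, Arg-, Leu- and Met-, with cycloheximide (filled circles) and without (open squares), with exact 95% Poisson counting intervals and, as triangles, upper bounds where a member was not listed. EIF1 and PABPC1 are highest in Arg-, EIF1AX and DENR are lower in Arg- than in Leu- in both series, and EIF3K is lowest in Met-.

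The subunits of eIF2, the complex that carries initiator tRNA, did not differ in parallel. EIF2S1, the alpha subunit on which eIF2 is phosphorylated, stood at 38.9 RPKM in Suff, 162 in Arg- and 212 in Leu- with CHX. Without CHX it stood at 197, 128, 168 and 92.3 RPKM in Suff, Arg-, Leu- and Met-. It was thus the lowest in Suff among the 3 libraries that listed it with CHX and the highest in Suff among the 4 without it, with Arg- ratios of 2.03 (1.75 to 2.38) and -0.61 (-0.86 to -0.38). The transcript listed for EIF2S1 differed between the series, although both have the same coding length, and whether this has a part in the difference was not tested. EIF2S2 stood at 229, 230.4, 316 and 236 RPKM with CHX and at 317, 340.2, 422 and 470.5 RPKM without it, in the order Suff, Arg-, Leu- and Met-. No EIF2S2 ratio passed 2-fold, and its Leu- ratios of 0.46 (0.33 to 0.60) and 0.41 (0.27 to 0.56) were close in size. EIF2S3, the gamma subunit that binds GTP and the tRNA, was at 0.84 in Arg- with CHX and -0.53 without it.

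For eIF2B, which recharges eIF2 with GTP, the alpha subunit stood apart from the 3 others in the CHX series. EIF2B1 was listed at 307, 199, 172 and 154 RPKM in Suff, Arg-, Leu- and Met- with CHX, and its log2 ratios were -0.62, -0.83 and -0.99. Its values without CHX were 161, 115, 137 and 158 RPKM, at ratios of -0.48, -0.23 and -0.03. EIF2B2, EIF2B3 and EIF2B4 were all higher than Suff in both Arg- and Leu- with CHX, by 0.69 to 1.60. Of these, EIF2B3 was also higher in Arg- without CHX, at 0.55 (0.28 to 0.84), with 58.4 RPKM in Suff and 85.9 in Arg-. EIF2B2 and EIF2B4 in Arg- without CHX lay at -0.05 and 0.07, with intervals that included 0.

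Subunits of eIF3, the large factor that binds the small ribosomal subunit, lay on both sides of Suff. EIF3D, the subunit that contacts the mRNA cap on selected transcripts, stood at 79.8, 346, 251 and 154 RPKM in Suff, Arg-, Leu- and Met- with CHX. Without CHX it stood at 207, 328, 335 and 222 RPKM. Suff was the lowest of the 4 in both series, and the Arg- ratios were 2.10 (1.95 to 2.28) and 0.66 (0.53 to 0.79), while the Leu- ratios were 1.64 (1.49 to 1.82) and 0.69 (0.56 to 0.82). EIF3D was 1 of 4 members at least 1.5-fold higher in Arg- in both series and, with EIF4B, 1 of 2 in Leu-.

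EIF3K, a peripheral subunit, was at the other end. It stood at 1006, 735, 744 and 282 RPKM with CHX and at 777, 554, 649.8 and 333 RPKM without it, again in the order Suff, Arg-, Leu- and Met-. All 6 starved values lay below Suff, and the Met- ratios were -1.83 (-2.15 to -1.54) and -1.22 (-1.41 to -1.04). Among members listed in both libraries of a comparison in both series, EIF3K was the only one past 2-fold in the same direction in both for a starvation. It was 1 of 13 members so compared in Met-, and the share of all genes past 2-fold in both was not taken. At 1.5-fold, 7.29% of all genes were lower in both series in Met-, so a count of 1 does not set the members apart. The transcript listed for EIF3K differed between the series but not within either. EIF4H, not listed in Met- with CHX, was also at least 2-fold lower in Met- in both series if its upper limit with CHX, given below, is counted. EIF3K and EIF3L form a module at the edge of the complex, and EIF3L did not share this pattern: it stood at 189.6, 213, 171 and 253 RPKM without CHX, higher in Met- than in Suff by 0.41 (0.27 to 0.56).

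EIF3G, an RNA-binding subunit, was lower in Arg- in both series, at -0.81 (-0.93 to -0.69) and -0.87 (-1.04 to -0.71). With CHX it stood at 450.4, 257, 418 and 434 RPKM, so that Arg- alone was low, whereas without CHX, at 450.8, 246, 282 and 259 RPKM, all 3 starved libraries were low. EIF3A, listed only with CHX, stood at 24.6, 29.1, 58.3 and 88.3 RPKM, with ratios of 0.23, 1.21 and 1.80. EIF3B, a core subunit, was at 68.6 RPKM in Suff and 148 to 168 RPKM in the starved libraries with CHX, but at 197 RPKM in Suff and 156 to 193 RPKM without it. EIF3M, which was at 366 RPKM in Suff and 167 RPKM in Met- without CHX, had a ratio of -1.13 (-1.33 to -0.93) there. EIF3J, the loosely bound subunit, was at 0.90 in Met- with CHX and at -0.32 without it.

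Among the eIF4 factors, which bind the cap and unwind the mRNA, the helicase EIF4A1 gave the widest contrast between series. It stood at 339, 743, 829.7 and 517 RPKM in Suff, Arg-, Leu- and Met- with CHX and at 2368, 1464, 2157 and 1344 RPKM without it. All starved values were above Suff in the first series and below it in the second. The log2 ratios with CHX were 1.13, 1.29 and 0.61, and those without CHX were -0.69, -0.13 and -0.82. EIF4B, a cofactor of that helicase, was listed at 17.0, 38.9 and 51.0 RPKM in Suff, Arg- and Leu- with CHX and at 157, 179, 246 and 209 RPKM without it. In Leu- it was higher in both series, at 1.53 (1.24 to 1.94) and 0.64 (0.50 to 0.79).

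EIF4H, a second cofactor of the helicase, was below Suff in every library that listed it. It stood at 425, 359 and 268 RPKM with CHX and at 634, 417, 404 and 273 RPKM without it, and its Leu- ratios of -0.66 and -0.65 were nearly equal in size. EIF4E, the cap-binding protein itself, was at 168, 155 and 110.1 RPKM with CHX and at 297, 176, 207 and 215 RPKM without it. It was lower than Suff in each, beyond counting error in all but Arg- with CHX. EIF4G1 was listed without CHX at 55.8, 46.6, 35.3 and 82.8 RPKM, so that Leu- was lowest at -0.64 (-0.87 to -0.45) and Met- highest at 0.56 (0.41 to 0.73). EIF4A2, the second helicase paralog, stood at 41.7, 120.0 and 98.9 RPKM in Suff, Arg- and Leu- with CHX, where the listed transcript is annotated as subject to nonsense-mediated decay, and its ratios without CHX were 0.28 and 0.22.

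EIF5, which makes eIF2 hydrolyse its GTP at the start codon, differed in sign between starvations. It was listed at 147, 166, 91.6 and 198 RPKM with CHX and at 186, 174, 131 and 268 RPKM without it. Leu- was the lowest and Met- the highest in both series, at -0.68 and -0.50 for Leu- and at 0.43 and 0.53 for Met-. EIF5B was listed at 7.26, 22.9 and 8.71 RPKM with CHX and at 18.3, 31.0, 23.2 and 34.8 RPKM without it, with Arg- ratios of 1.53 (1.29 to 2.05) and 0.73 (0.46 to 1.05). EIF6, which keeps the large subunit from joining, was at 299.7, 603, 359.7 and 228 RPKM with CHX and at 422, 517, 350.3 and 253 RPKM without it. EIF6 was highest in Arg- and lowest in Met- in both series.

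PABPC1, the major cytoplasmic poly(A)-binding protein, stood at 55.7, 131, 75.7 and 67.2 RPKM with CHX and at 87.0, 143, 83.2 and 107 RPKM without it. Arg- was the highest in both, at 1.22 (1.05 to 1.43) and 0.71 (0.53 to 0.91). PABPC4, its paralog, stayed within a narrow range, at 35.4 to 42.6 RPKM with CHX and 41.8 to 53.6 RPKM without it. PAIP1, which promotes the function of PABPC1, was highest in Leu- without CHX at 85.8 RPKM against 52.2 RPKM in Suff, a ratio of 0.71 with an interval that excluded 0. PAIP2, which displaces PABPC1 from poly(A), lay within 1.5-fold of Suff in every comparison that counted it.

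The 25 members listed in Suff but not in Met- with CHX have only an upper limit in Met-. That limit was set at 63 reads, just under the smallest number listed in that series. It presumes that a gene was unlisted only for want of reads, which need not hold. EIF4G1, at 55.8 RPKM in Suff without CHX, was listed in no CHX library. If the limit holds, 3 members were at least 2-fold lower in Met-: EIF1AX by at least 3.38-fold, EIF4H by at least 2.69-fold and DENR by at least 2.52-fold. The share of all genes lower by the same limit was not taken. Another 7 were lower by an amount under 2-fold (EIF2S3, EIF3E, EIF3F, EIF3H, EIF3M, MCTS1 and PAIP2), and for the other 15 the limit lay above the Suff level and gave no direction. Not being listed was frequent among genes well above the lowest number of reads. Of 1431 genes whose Suff level predicted at least 64 reads in Met-, 64.5% were listed there, and of the 21 members among them 11 were. At 128 predicted reads or more these values were 77.0% of 692 genes and 6 of 9 members, with DENR, EIF1AX and EIF4H unlisted. Of 433 genes whose Suff level predicted at least 192 reads, 81.1% were listed. Of the 6 members among these 433 genes, EIF1, EIF3G, EIF3I, EIF3K and EIF4A1 were listed and EIF1AX was not. Without CHX, where all 3 members below the 2-fold limit were listed, Met- ratios were -0.83 for EIF1AX, -1.21 for EIF4H and 0.07 for DENR.

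The series with and without CHX have separate Suff libraries, so their agreement can be counted. In Arg- 25 of 38 members had the same sign in both (71.1% of all genes), in Leu- 19 of 36 (71.2%) and in Met- 10 of 13 (70.5%). Members at least 1.5-fold higher in Arg- in both series were EIF1, EIF3D, EIF5B and PABPC1, and those lower were DENR, EIF1AX and EIF3G. In Leu- EIF3D and EIF4B were higher and EIF4H lower, and in Met- EIF3K was lower. Shares of all genes past 1.5-fold in both series were 8.21% higher and 14.6% lower in Arg-, 8.66% and 6.08% in Leu- and 22.4% and 7.29% in Met-. The Met- values cover only genes that reached 64 reads in Met- with CHX.

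Arg- and Leu- were also compared with each other, which leaves the Suff libraries out and sets the 2 deepest libraries of the CHX series side by side. EIF1AX was lower in Arg- than in Leu- by nearly the same amount in both series, at -0.90 (-1.001 to -0.79) with CHX and -0.94 (-1.14 to -0.74) without it. DENR gave -1.01 (-1.16 to -0.87) and -0.99 (-1.29 to -0.71). EIF1 was higher in Arg-, at 1.19 (1.13 to 1.25) and 0.66 (0.54 to 0.79). PABPC1 was at 0.79 (0.67 to 0.92) and 0.78 (0.55 to 1.02), EIF3F at 0.74 and 0.77, and EIF6 at 0.74 and 0.56. All of these intervals exclude 0, and for EIF1AX, DENR, PABPC1, EIF3F and EIF6, but not for EIF1, those of the 2 series overlap. EIF3J differed in sign, at 0.24 (0.08 to 0.40) and -0.75 (-1.06 to -0.45).

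The Arg- over Leu- ratios of the 2 series were set side by side across members. Of 38 members, 31 had the same sign in both series (66.1% of all genes). Pearson's r over the 38 was 0.81 and Spearman's rho 0.81, and over 6355 other genes they were 0.42 and 0.42. At 50 RPKM or more in both series r was 0.83 over 30 members and 0.44 over 2801 other genes. These are correlations across genes measured in the same 4 libraries, and genes are not independent replicates. The other ratios between starved libraries did not share this difference from other genes throughout. For Met- over Leu- 6 of 13 members had the same sign in both series (71.7% of all genes), with an r of 0.57 over members and 0.65 over 1896 other genes. For Met- over Arg- it was 11 of 13 (71.5% of all genes), with an r of 0.83 and, over 1876 other genes, 0.54. The 3 ratios share libraries and are not separate evidence. The count of members past 2-fold in the Arg- over Leu- ratio was 2 higher, EIF1 and EIF5B, and 1 lower, DENR, with CHX (4.15% and 5.2% of all genes), and 0 in either direction without CHX (1.21% and 3.56%).

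**Figure D4:**
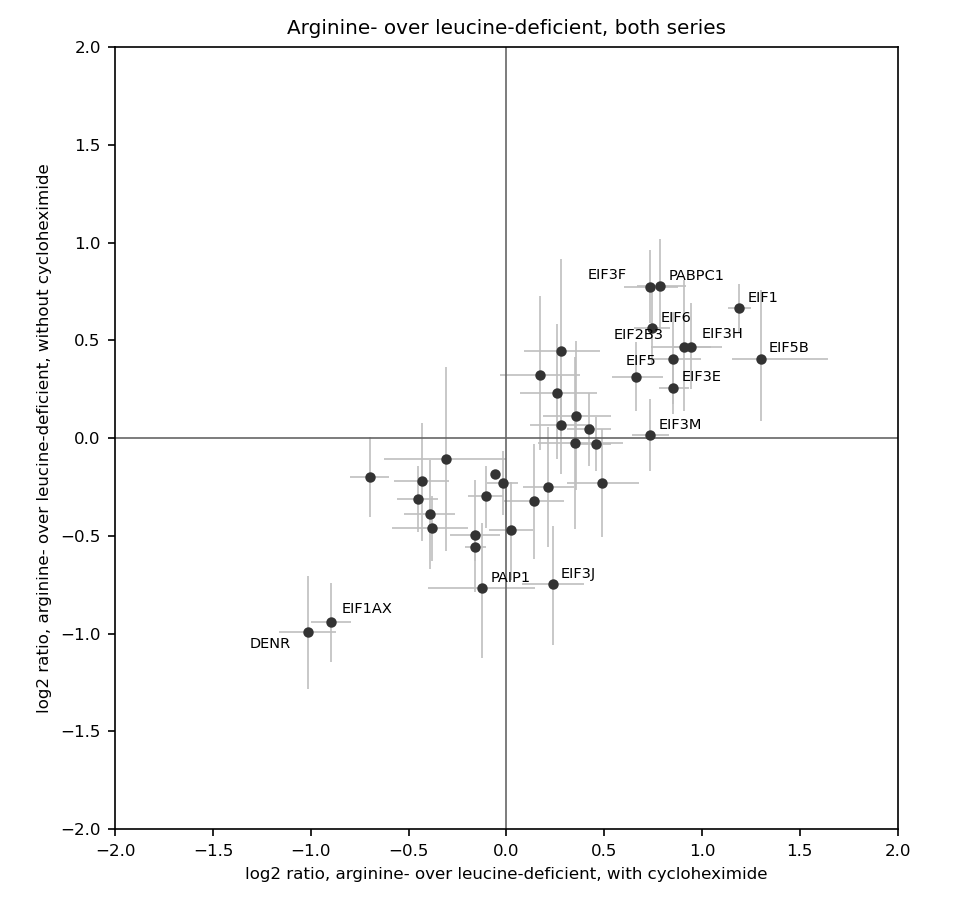
Log2 ratio of Arg- over Leu- for 38 members, with cycloheximide (x) against without (y), with 95% counting intervals as bars. EIF1, EIF3F, EIF6 and PABPC1 lie at upper right, EIF1AX and DENR at lower left, and 31 of 38 points have the same sign on both axes.

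The 3 comparisons of the CHX series share 1 Suff library, and several members were low in that library itself. Set against Suff without CHX, the members' median log2 ratio was -0.58, where that of all 5030 genes was 0.23. Of 37 members, 12 were at least 2-fold lower with CHX and 0 higher (14.4% and 15.6% of all genes). The largest gaps were for EIF4B at 17.0 against 157 RPKM, EIF4A1 at 339 against 2368 RPKM, EIF2S1 at 38.9 against 197 RPKM and EIF3L at 41.8 against 189.6 RPKM. The members above their level without CHX were led by EIF2B1, at 307 against 161 RPKM, and DENR, at 498 against 288 RPKM.

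The gap was wider for longer coding sequences, in members as in other genes. Spearman's rho of the ratio with coding length was -0.56 over 37 members and -0.48 over 4892 other genes, as a description across genes of the same 2 libraries. It was -0.60 over the 26 members listed with the same transcript in both. The 2 series also differ in duplicate removal, in the lowest number of reads listed and in the transcript listed for 11 members, so cycloheximide and processing cannot be told apart. These 11 were EIF1, EIF1AD, EIF2S1, EIF2B3, EIF3H, EIF3K, EIF4A2, EIF4B, EIF4E, EIF5 and PABPC4. The same Suff library is the denominator of each CHX ratio above, and its part in the counts of members that were higher was not tested.

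**Figure D5:**
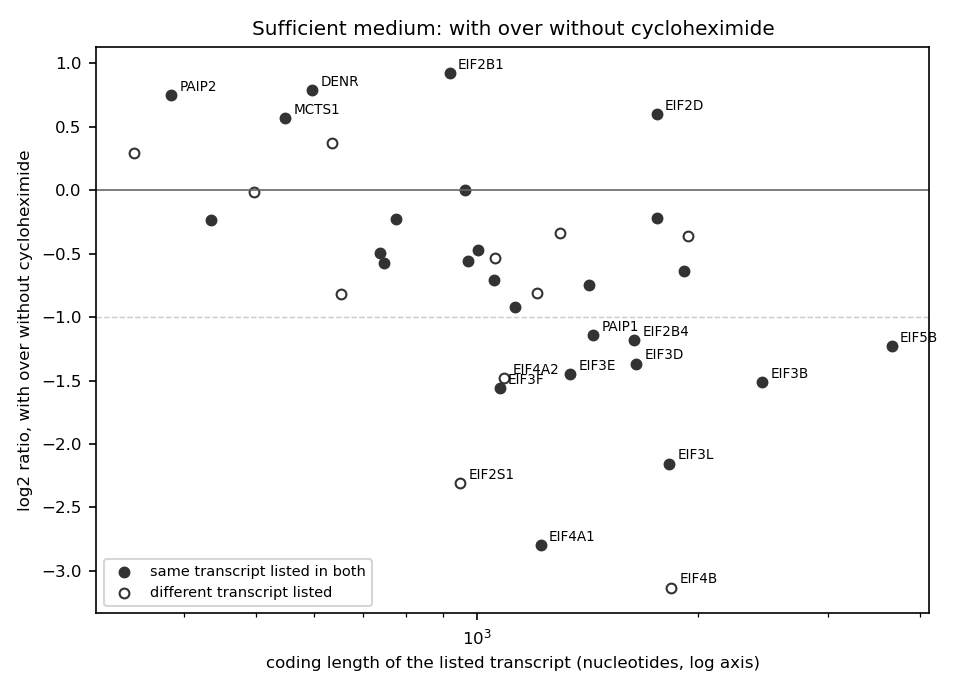
Log2 ratio of RPKM in sufficient medium with over without cycloheximide against coding length (log axis) for 37 members, with open points where the transcript listed differs. The 12 points below the dashed line are at least 2-fold lower with cycloheximide, EIF4B lowest at -3.13, and the highest point is EIF2B1 at 0.93.

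The median ratio of the members with a TOP start, as printed above, lay above that of ribosomal proteins in all 6 comparisons. The ribosomal proteins were taken by symbol, and 47 of the 63 with a window met the same TOP rule. The 2 groups were not matched for coding length, with which the Suff library with CHX varied. In Leu- without CHX all 74 ribosomal protein genes counted, of 79, were below Suff, with a median of -0.93, whereas the 9 TOP-start members had a median of 0.04 and ranged from -0.57 for EIF3F to 0.69 for EIF3D. In Met- without CHX the medians were -0.53 and -0.11, and in Arg- without CHX they were -0.25 and 0.18. With CHX the medians in Arg- were -0.67 for ribosomal proteins and 0.84 for the 9 members, and in Leu- they were -1.20 and 0.49. In Met- with CHX only 2 of the 9 were counted, EIF3D and EIF3K, with a median of -0.45 against -1.17 for ribosomal proteins. The 26 members whose window had no TOP start had medians of -0.26, -0.13 and -0.32 in Arg-, Leu- and Met- without CHX, over the 23 counted. With CHX their medians were 0.45, -0.00088 and 0.20 over the 22, 20 and 8 counted, so that in Met- with CHX the TOP-start members lay below them. EIF3D, EIF3F, EIF3K and EIF2A had the longest tracts (10, 10, 8 and 8 bases). In Leu- without CHX the first 3 differed from one another by more than their counting errors, at 0.69, -0.57 and -0.26. EIF2A lay at 0.04 (-0.31 to 0.37) there.

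Of members known as TOP mRNAs, EIF3E, EIF3F, EIF3H, EIF4B and PABPC1 were looked at as a list. All 5 were higher in Arg- with CHX, with a median of 1.22, and 4 of the 5 passed 2-fold, where 16.6% of all genes were higher. Of the other 34 members counted there, 12 passed 2-fold higher, with a median of 0.51. In Leu- with CHX the median of the 5 was 0.44, with 4 above Suff, 1 below it and 1 past 2-fold higher (12.1% of all genes). In Met- with CHX only PABPC1 was counted. In Suff itself, 3 of the 5 were at least 2-fold lower with CHX than without it (14.4% of all genes), with a median log2 ratio of -1.45. Without CHX the medians of the 5 were 0.20, -0.06 and -0.33 in Arg-, Leu- and Met-. EIF3E, a PCI-domain subunit of eIF3, stood at 144, 503 and 278 RPKM in Suff, Arg- and Leu- with CHX and at 395, 489, 408 and 297 RPKM without it. EIF3H, like EIF3F a subunit with an MPN domain, stood at 168, 401 and 208 RPKM with CHX and at 244, 240.2, 174 and 194 RPKM without it. Elongation factors, for comparison, had medians of 1.42, 1.06 and 1.77 with CHX and 0.66, -0.09 and 0.66 without it over 5 genes, led by EEF1A1, EEF1G and EEF2. The others, EEF1B2 (-0.44, -0.44 and -0.87) and EEF1D (-0.61, -0.83 and -0.93), were below Suff in each starved library without CHX. In Suff itself, 4 of the 5 were at least 2-fold lower with CHX than without it and 1 was higher (14.4% and 15.6% of all genes).

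A list of 39 further genes that act on these factors was examined beside them. Of these, 19, 20 and 8 could be counted in Arg-, Leu- and Met- with CHX, and 2, 3 and 2 were at least 2-fold higher and 2, 2 and 1 lower. Of all genes, 16.6%, 12.1% and 46.7% were higher and 19.7%, 7.28% and 9.79% lower. Without CHX 29 were counted in each, with 3, 4 and 3 higher and 1, 0 and 3 lower, beside 8.23%, 6.85% and 20.2% of all genes higher and 5.95%, 2.06% and 5.34% lower. No gene of the list passed 2-fold in the same direction in both series for a starvation, so the following were named after their values were seen. EIF4EBP2, a repressor of eIF4E, stood at 187, 61.0 and 51.8 RPKM in Suff, Arg- and Leu- with CHX and at 111, 56.4, 60.7 and 57.1 RPKM without it. Suff was the highest of the libraries that listed it in each series. Its paralog EIF4EBP1 stood at 780.1, 629.8, 947 and 472 RPKM in Suff, Arg-, Leu- and Met- with CHX and at 280.1, 1127, 664 and 458 RPKM without it. Its ratios in Arg-, Leu- and Met- were 2.004, 1.24 and 0.71 without CHX and -0.31, 0.28 and -0.72 with it, so that its sign differed between the series in Arg- and Met-.

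On the eIF2 side, PPP1R15A, the stress-induced subunit of the eIF2 phosphatase, was higher in all 3 starved libraries without CHX, at 2.96, 2.13 and 2.45, from 3.15 RPKM in Suff. It was not listed in Suff with CHX. EIF2AK4, which encodes GCN2, lay between 8.35 and 10.3 RPKM in every library that listed it, and its ratios did not exceed 0.21 in size. Its mean RPKM was below 10 in each comparison, so it was not among the genes counted. Paralogs of the members did not always share their values. EIF1B, the paralog of EIF1, was at 0.57 and 0.64 in Arg-, the same direction as EIF1 in both series, but in Met- without CHX it was at 0.28, where EIF1 was at -0.46.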

How the data were processed

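Per the labels, ribosome-protected RNA of HEK293T cells was sequenced in 8 libraries, 1 per condition. Per the methods, the authors removed adaptors with a Perl script, kept footprint-sized reads, trimmed low-quality ends with Trimmomatic and aligned to the human transcriptome (GRCh38) with Bowtie, allowing no mismatch and keeping unique reads. The submitters' processing notes name cutadapt and Bowtie, and which tool trimmed these files cannot be told apart. Tool versions are not given in the sources used here. The files without CHX were also marked as free of duplicates. As deposited, each file gives RPKM by Ensembl transcript, with neither counts nor replicates. From the labels, each library formed its own group.

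Transcripts were matched to GENCODE release 44 (96.7 to 97.1% per library). RPKM times coding length fell on whole reads, within 0.01, for 96.9 to 97.0% of matched transcripts, which gave each library's depth and, in proportion, counting intervals. Recovery and calls were also tested on simulated data. A pseudocount of 1, a mean RPKM of at least 10 and a 2-fold threshold were used (Python 3.11.15, pandas 2.3.3, numpy 2.4.6, scipy 1.17.1, matplotlib 3.10.9). No count test was run, since each group held 1 library.

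Members were named if they had the highest or lowest ratio of their factor in a series, passed 2-fold the same way in both series, were unlisted in a library, were known TOP mRNAs or changed transcript. The members and lists were chosen with earlier results of these data known. Alternatives tried were other pseudocounts, filters, transcript summing, centring, thresholds and treatment of unlisted genes.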

Additional observations from a re-analysis of the deposited data

Results flagged for a closer look

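For 3 members the starved library lay at least 1.5-fold above Suff with CHX and at least 1.5-fold below it without CHX. Each series has 1 library per condition, so these differences between the series were not tested. In Arg- the log2 ratio with CHX exceeded that without it by 2.64 for EIF2S1 (2.03 against -0.61), by 1.82 for EIF4A1 (1.13 against -0.69) and by 1.28 for EIF3I (0.69 against -0.59). EIF3I, a WD-repeat subunit of eIF3, stood at 923 RPKM in Suff and 1486 in Arg- with CHX and at 1360.0 and 900.2 RPKM without it. In Met- the difference for EIF4A1 was 1.42 (0.61 against -0.82).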

How the results depend on the processing

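The median log2 ratio of the members was recomputed under 8 alternatives in each of the 6 comparisons, and 45 of these 48 values lay within the order-statistic interval of the main median. These intervals describe the spread among member genes of the same libraries. Genes are not replicates, so the intervals give no error of a condition and only a loose yardstick. They were wide, 0.18 to 1.09 in Arg- and -0.99 to 0.94 in Met- with CHX. A median could thus fall from 0.84 to 0.23 in Arg- (4 times the lowest reads) or from 0.16 to -0.73 in Met- (centred) and stay inside. The 3 that did not were -5.22 in Met- with CHX when unlisted genes were counted as 0, -1.83 in Met- with CHX over the 3 members expected at 4 times the lowest number of reads or more, and -0.63 in Met- without CHX after centring on the all-gene median. Counts of members past 2-fold, in either direction, stayed within 1.5 times the main count in 42 of 54 cases. Summing transcripts and requiring the same highest transcript returned the main median and count in every comparison. No member changed transcript within a series, so these alternatives could not move a result and add nothing to the totals of 45 and 42. At 1.5-fold the counts were 28, 18 and 8 with CHX and 12, 6 and 10 without it in Arg-, Leu- and Met-. With CHX, 22, 14 and 5 of these were higher and 6, 4 and 3 lower. Without CHX, 4, 3 and 1 were higher and 8, 3 and 9 lower. Counting unlisted genes as 0 gave 26 in Met- with CHX. Requiring 4 times the lowest reads gave 9 of 25, 4 of 25 and 2 of 3 members in Arg-, Leu- and Met- with CHX. Shares of all genes were not taken under these 3 settings. The counts therefore show how the call of members moved, and not whether members differ from other genes. Centring gave 8 in Met- without CHX, and no filter gave 1 in Leu- without CHX, EIF3C. Counts in Met- with CHX rest on its low depth. The labels give no replicate numbers, and a fit of the medium with the series as a block was not run.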
